A study of Mus musculus with 9 samples.

Results

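The proteasome subunit genes of mouse liver were followed through 9 RNA-seq libraries. They were taken by name from the deposited gene table, as the protein-coding genes whose symbol starts with Psm, then a letter from a to g and a digit. This gave 51 of the 56748 genes of the table, or of its 21970 protein-coding genes, and left out 5 genes of the same naming that are listed under other biotypes, such as the pseudogene Psma5-ps. Liver RNA of C57BL/6J mice, obtained at 7 to 8 weeks of age and then treated, was sequenced in 3 groups of 3 libraries (Control, DSS, Indirubin). In the first treated group, DSS, the mice had chronic colitis from 3 cycles of 1.8% (w/v) dextran sulfate sodium in the drinking water, and were given 200 µL of sterile water by mouth every day. The Indirubin group had the same DSS cycles and received 1 g/kg of indirubin daily in the same volume. Indirubin is a poorly soluble constituent of the herbal medicine indigo naturalis. The Control group was given the same volume of sterile water and its label names no DSS. The series description introduces colitis before it divides the mice, so whether Control colons were healthy is not certain.

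The proteasome is the barrel-shaped protease that degrades proteins tagged with ubiquitin. Its 20S core stacks rings of alpha subunits, which gate the entrance, on rings of beta subunits, of which Psmb5, Psmb6 and Psmb7 carry the active sites. The 19S cap recognises ubiquitin, removes it and unfolds the substrate with a ring of ATPases. Under interferon signalling, and constantly in many immune cells, the active subunits are replaced by Psmb8, Psmb9 and Psmb10, which gives the immunoproteasome known for supplying peptides to MHC class I molecules. In liver, hepatocytes hold mostly the constitutive form.

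The libraries held 6514863 to 7944684 counts, but mitochondrial genes took 71.6% to 91.3% of them. This left 569044 to 2132208 counts on nuclear genes and 1700 to 5998 on the proteasome genes. The mitochondrial share was 87.5% to 91.3% in Control, 85.8%, 87.7% and 72.4% in DSS and 89.5%, 71.6% and 77.2% in Indirubin. DSS-3, Indirubin-2 and Indirubin-3 thus had the lowest shares and the most nuclear counts, at 2132208, 1910420 and 1771035, against 569044 to 989212 in Control. All 10 hepatocyte markers were present, at a summed 11100 to 25700 normalized CPM (the depth-scaled count CPM, with TMM factors over the 9 libraries). On this scale 3 counts, the limit that a count of 0 allows, were worth 0.246 to 0.731 normalized CPM, by counting error only. Indirubin-2 and Indirubin-3 stood apart in more than the 2 ways given next. Their 10 pancreatic acinar markers summed to 688 and 909 normalized CPM, against 0 to 21.2 in the other libraries. Their 10 neutrophil markers summed to 685 and 897, against 223 and 254 in DSS-2 and DSS-3, 33.9 in DSS-1, 32.9 in Indirubin-1 and 2.64 to 6.62 in the Control libraries. Of that sum, 1 gene, Lcn2, which hepatocytes also make in the acute phase, gave 94.8% in DSS-2, 94.7% in DSS-3, 64.1% in Indirubin-2 and 89.6% in Indirubin-3. It gave 48.6% in DSS-1, 10.1% in Indirubin-1, 82.4% in Control-1 and 0% in the other Control libraries. Without Lcn2 the sum was 246 in Indirubin-2, 93.1 in Indirubin-3 and 29.6 in Indirubin-1, against 11.5 to 17.4 in DSS, where DSS-1 was then the highest, and 1.17 to 3.65 in Control. The part of these transcripts and of the mitochondrial share in the results below was not tested. Directions and differences are therefore also given with Indirubin-1 as the only indirubin library. In bulk tissue, fewer cells of a type and less RNA per cell cannot be told apart.

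The proteasome genes together took 0.266% to 0.378% of the nuclear counts of a library. Their summed level was 411, 463 and 414 normalized CPM in Control, 488, 391 and 548 in DSS and 391, 451 and 420 in Indirubin. The 3 groups overlapped, with means of 429 in Control, 476 in DSS and 421 in Indirubin. The lowest and the highest value of the DSS group lay outside the range of the Control group, so the DSS libraries differed most among themselves.

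Most of the 51 genes were well above the floor. The edgeR filter on low counts kept 47 of them for DSS against Control, 48 for Indirubin against DSS and 47 for Indirubin against Control, and 46 for all 3 comparisons. The 3 that were kept in no comparison belong to other tissues by their known roles. Psmb11, the catalytic subunit of the thymus, had 0 counts in every library. Psma8, the alpha subunit of the testis proteasome, had 13 and 14 counts in DSS-2 and DSS-3, 2 in Indirubin-1 and 0 in the other 6 libraries. Psmc3ip, which is named for binding an ATPase subunit but acts in meiotic recombination, had 1 count, in DSS-3. The assembly chaperones Psmg1 and Psmg4 were each kept in 2 comparisons.

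Levels can be set side by side between genes after division by the gene length that the table lists. By this measure, a level in normalized CPM per kb over all 9 libraries, the alpha subunit Psma6 stood at 13.1, and Psmb5 and Psmb6, the constitutive subunits of the chymotrypsin-like and caspase-like sites, at 11.7 and 9.95. The order of the top genes differed between groups. Psma6 was first in Control (14.2) and Indirubin (12.4), while in DSS Psmb5 (14.2) stood above Psma6 (12.8), and in Control Psmb5 (8.97) stood below Psme2b (10.1), Psmc5 (9.73) and Psme1 (9.15). Their immune counterparts were lower, with Psmb8 at 2.75 and Psmb9 at 1.45. The trypsin-like pair ran the other way, since Psmb7 stood at 2.01 and its immune counterpart Psmb10 at 5.72. At the low end were the testis subunit Psma8 at 0.176, the assembly chaperones Psmd5 at 0.399 and Psmg3 at 0.467 and the inhibitor Psmf1 at 0.512, while the chaperone Psmg4 stood at 3.07. The listed length counts every exon of a gene, so a gene whose liver transcript is short has an understated level.

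**Figure D1:**
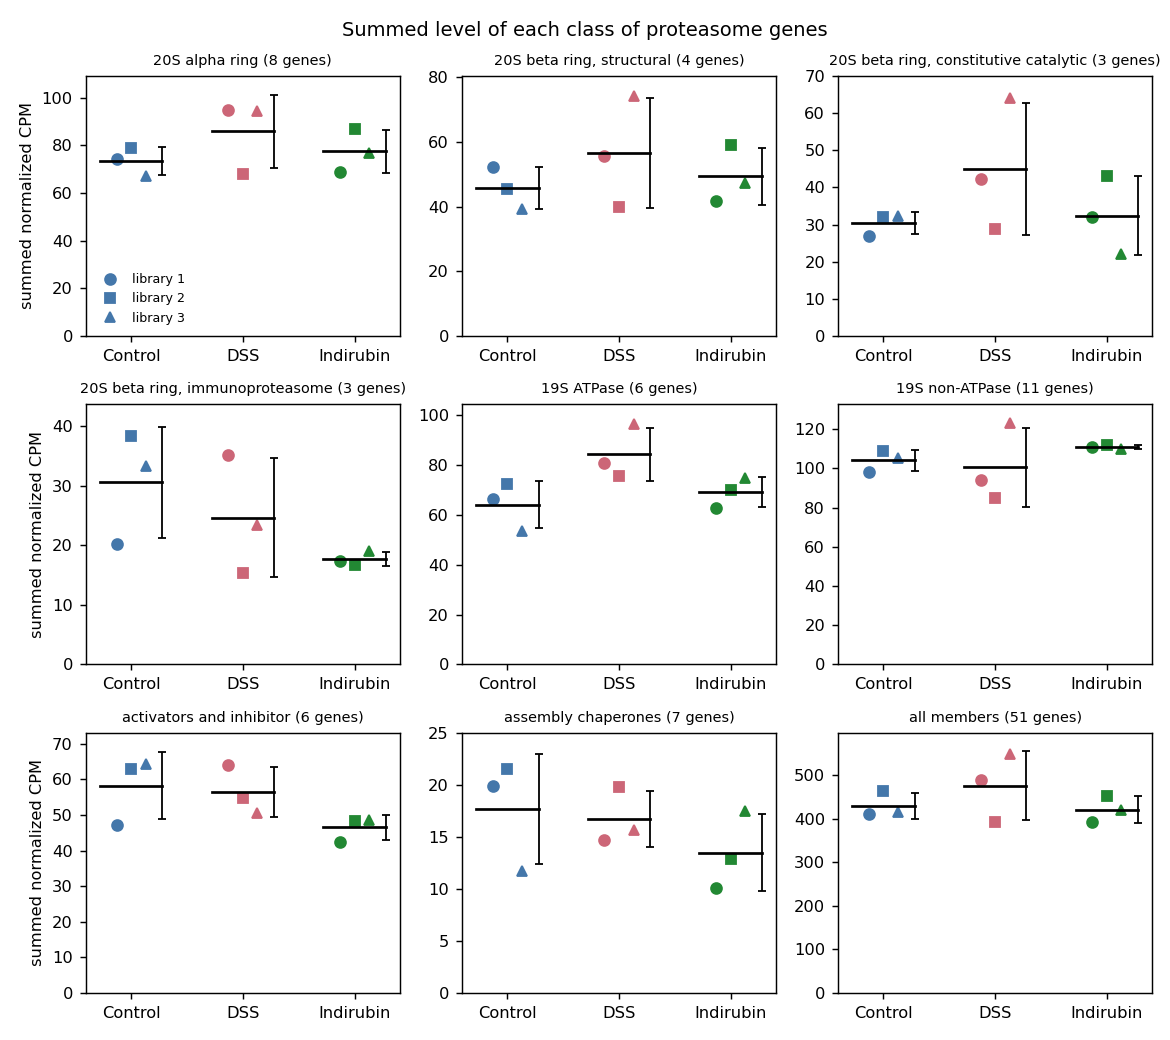
Summed normalized CPM of each class of proteasome genes (vertical axes, each from 0) in the 3 libraries of the Control, DSS and Indirubin groups; bars are the mean and whiskers the SD (n = 3). The immunoproteasome panel has Control at 20.2 to 38.3 and Indirubin at 16.7 to 19, and the 19S ATPase panel has DSS at 75.5 to 96.2 and Control at 53.6 to 72.3.

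The first comparison asks what chronic DSS colitis does to the proteasome genes of the liver. No proteasome gene passed the test. Of the 47 tested genes, 32 had a log2 fold change above 0 and 15 below, with a median of 0.18 beside 0.01 over all genes. A share of 68.1% was thus above 0, beside 50.6% of all genes. With edgeR's quasi-likelihood F test, Benjamini-Hochberg adjusted over all genes, 0 were called at an adjusted p under 0.05, where 0.708% of all 7482 genes tested were (0.214% higher and 0.495% lower), and the smallest adjusted p was 0.63. The DESeq2 Wald test called 0 of the 40 to which it gave an adjusted p, where it called 3.71% of all genes with one. At an unadjusted p under 0.05 there was 1 higher gene, Psmc1, and 1 lower, Psmd4, which is 2.13% higher beside 3.48% of all genes (4.05% of all genes were lower). With the scaling of this comparison, the groups did not overlap for 3 genes higher in DSS (Psmb6, Psmc1 and Psmd13). This was 6.38% of those tested, beside 7.91% of all genes. Lower without overlap were 2 (Psmd4 and Psmd10), or 4.26% beside 8.21%. Both shares were below those of all genes. With the scaling over the 9 libraries, Psmd13 overlapped.

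The second comparison asks what indirubin adds in mice with colitis. Here 14 of the 48 tested genes stood higher in Indirubin than in DSS and 34 lower, with a median log2 fold change of −0.23 while that of all genes was 0.15. A share of 29.2% was above 0, beside 56.8% of all genes. The quasi-likelihood test called 0 proteasome genes at a Benjamini-Hochberg adjusted p under 0.05, and 0% of all 9117 genes, and the DESeq2 Wald test called 0 proteasome genes where it called 0.878% of all genes with an adjusted p. The smallest adjusted p of a proteasome gene was 0.742, and 0 had an unadjusted p under 0.05, where 4.45% of all genes were higher and 3.22% lower. The groups did not overlap for 0 higher genes, beside 10.5% of all genes, and for 3 lower ones (Psmb3, Psmc4 and Psmd9), or 6.25% beside 5.9%. The DSS libraries that stand high in one comparison are the same that enter the other, so the opposite medians of the first and the second comparison are not independent of each other.

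The third comparison, Indirubin against Control, joins both treatments. The proteasome genes were split evenly, 24 above 0 and 23 below (51.1% above, beside 55.5% of all genes), with a median of 0.01 and of 0.13 over all genes. The quasi-likelihood test called 0 at a Benjamini-Hochberg adjusted p under 0.05, where 0.236% of all 8059 genes were called (0.062% higher and 0.174% lower), and the DESeq2 Wald test called 0 where it called 3.92% of all genes with an adjusted p. The smallest adjusted p was 0.299, for Psmd1, which was also the 1 gene with an unadjusted p under 0.05 (6.38% of all genes were lower and 7.45% higher at that level). The groups did not overlap for 3 higher genes (Psmb4, Psmd7 and Psma5), or 6.38% beside 12.7% of all genes, and for 5 lower ones (Psmc3, Psmb3, Psmd1, Psme4 and Psmb9), or 10.6% beside 9.07%. Psme4 falls outside the rule for named genes and was named after its values were seen.

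These directions are relative to the TMM scaling. With the library size alone, which counts the mitochondrial reads, the median over all genes moved to 0.70, 0.43 and 1.10 in the 3 comparisons, and 43, 29 and 43 proteasome genes then stood higher with 4, 19 and 4 lower. Relative to the median of all genes, the median of the proteasome genes was 0.17, −0.38 and −0.12 with TMM and 0.16, −0.36 and −0.12 with the library size. It depended on which genes were tested: it was 0.15, −1.06 and −0.87 without a filter on low counts, and 0.16, −0.19 and −0.01 with at least 10 counts in every library. With Indirubin-1 as the only indirubin library, 14 stood higher and 35 lower against DSS, and 17 higher and 30 lower against Control. A single library has no spread of its own, so no calls are read from that fit. The labels name 9 separate samples but do not tie each to its own mouse, so p-values measure only the spread between these samples, which may be technical.

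**Figure D2:**
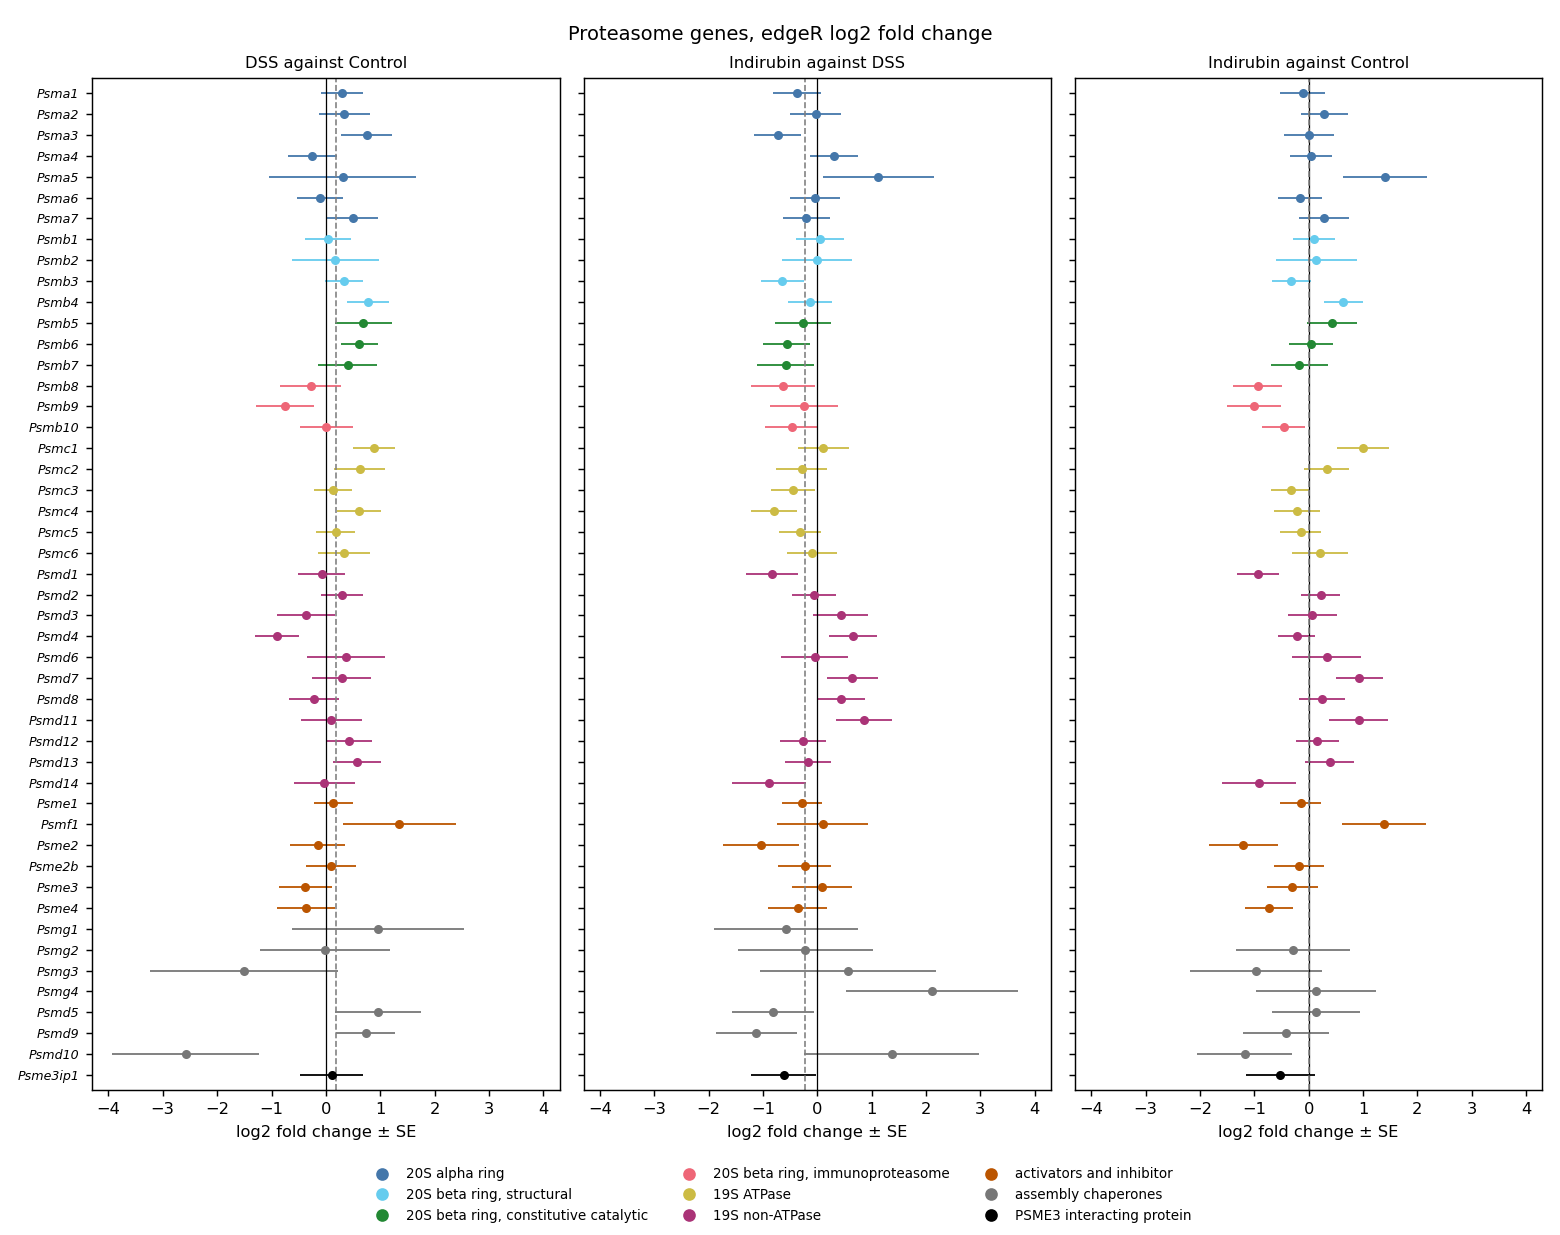
edgeR log2 fold change of each tested proteasome gene (points, coloured by class) with its standard error (whiskers) in the 3 comparisons. The dashed line is the median of the tested proteasome genes, at 0.18, −0.23 and 0.01; the widest whiskers belong to genes of few counts such as Psmd10 and Psmg4.

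The catalytic subunits form 3 pairs, each of an immune subunit and the one it replaces. In Indirubin against Control, the 3 immune subunits all had log2 fold changes below 0 with TMM, at a median of −0.94, while the 3 subunits they replace had a median of 0.04. None of the 6 passed the test. With the library size alone 2 of the 3 immune subunits stood above 0, at a median of 0.08 where that of all genes was 1.10, so that they remained below the other genes. The promoters of the chymotrypsin-like and the caspase-like pair are shown because the ratios within these pairs carry the comparison of catalytic subunits. They are the 250 bases before the transcription start in RefSeq, assembly GRCm38.p6, written 5′ to 3′ on the strand of the gene. Psmb8 is at chr17:34197945-34198194 on the plus strand, Psmb9 at chr17:34187331-34187580 on the minus strand, Psmb5 at chr14:54617996-54618245 on the minus strand and Psmb6 at chr11:70525107-70525356 on the plus strand. The capitals mark matches to the 4 motifs searched.
Psmb8: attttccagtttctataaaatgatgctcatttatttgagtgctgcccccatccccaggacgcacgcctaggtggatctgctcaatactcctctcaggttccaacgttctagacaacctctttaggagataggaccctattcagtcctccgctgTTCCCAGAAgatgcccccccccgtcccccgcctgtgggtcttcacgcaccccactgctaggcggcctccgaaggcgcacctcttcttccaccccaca
Psmb9: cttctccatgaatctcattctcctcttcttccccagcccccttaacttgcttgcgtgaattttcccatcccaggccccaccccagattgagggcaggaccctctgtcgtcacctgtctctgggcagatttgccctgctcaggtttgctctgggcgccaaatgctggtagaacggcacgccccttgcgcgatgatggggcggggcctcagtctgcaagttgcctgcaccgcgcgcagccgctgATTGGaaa
Psmb5: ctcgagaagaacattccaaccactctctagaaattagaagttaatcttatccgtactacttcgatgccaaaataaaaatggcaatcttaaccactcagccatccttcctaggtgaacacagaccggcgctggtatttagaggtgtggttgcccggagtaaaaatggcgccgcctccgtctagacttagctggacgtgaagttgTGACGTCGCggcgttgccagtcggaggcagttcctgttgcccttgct
Psmb6: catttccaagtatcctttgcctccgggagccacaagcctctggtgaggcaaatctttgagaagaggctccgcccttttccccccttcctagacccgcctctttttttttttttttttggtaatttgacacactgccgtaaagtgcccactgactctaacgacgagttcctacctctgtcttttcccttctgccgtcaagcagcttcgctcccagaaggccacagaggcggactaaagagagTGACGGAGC
In Psmb8 the capitals are a match to TTCNNNGAA, the core of the GAS element, 97 bases before the start. In Psmb9 they are a CCAAT box on the reverse strand, 8 bases before it. In Psmb5 and Psmb6 they match TGACNNNGC, the core of the antioxidant response element, 47 and 9 bases before the start.

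The table held promoters of 43 of the 51 genes, and the motifs were searched on both strands. The antioxidant core was found in 5 of the 43 (11.6%, beside 10.1% of all 27025 promoters) and the GAS core in 2 (4.65% beside 7.18%). The interferon response core (GAAA, NN and GAAA in a run) was found in 3 (6.98% beside 3.04%), in Psmb3, Psmd4 and Psmd9, and the letters CCAAT in 15 (34.9% beside 34.5%). A match is only a description of these letters in this window.

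Psmb8 and Psmb9 lie on either side of the peptide transporter gene Tap1 in the MHC region of chromosome 17, and Tap2 follows Psmb8. In the coordinates of the deposited table (GRCm39), Psmb9 (ENSMUSG00000096727) spans 34400961 to 34406738 on the minus strand and Psmb8 (ENSMUSG00000024338) spans 34416695 to 34420428 on the plus strand. The listed spans of Psmb9 and Tap1, which run on opposite strands, share 212 bases, and the counting is not stated to use strand, so reads there cannot be assigned with certainty.

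Psmb8, the immune form of the chymotrypsin-like subunit, was at 6.81, 13.7 and 15.8 normalized CPM in Control, at 18.4, 4.96 and 5.39 in DSS and at 5.14, 5.41 and 7.95 in Indirubin. The highest value of all belonged to DSS-1 while the other 2 DSS libraries were below every Control library, and Control and Indirubin overlapped through Control-1. The log2 fold change was −0.28 (SE 0.56) for DSS against Control, −0.63 (SE 0.58) for Indirubin against DSS and −0.94 (SE 0.45) for Indirubin against Control, with quasi-likelihood Benjamini-Hochberg adjusted p-values of 1, 0.928 and 0.385.

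Psmb9, the immune form of the caspase-like subunit, was at 5.45, 10 and 7.55 normalized CPM in Control, 2.84, 5.85 and 4.66 in DSS and 4.59, 3.69 and 3.02 in Indirubin. Every Indirubin library was below every Control library, and the DSS libraries overlapped both. Its log2 fold changes in the same order were −0.75 (SE 0.54), −0.24 (SE 0.63) and −1.01 (SE 0.50), with adjusted p-values of 0.92, 0.981 and 0.406 from edgeR's quasi-likelihood F test, Benjamini-Hochberg adjusted.

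Psmb10 (ENSMUSG00000031897, chromosome 8, 106662367 to 106665076), the immune form of the trypsin-like subunit, was at 7.98, 14.6 and 9.99 normalized CPM in Control, 14.0, 4.61 and 13.3 in DSS and 7.53, 7.62 and 8.04 in Indirubin. Its 3 Indirubin values lay close together, and their highest was just above the lowest Control value. In the same order, its log2 fold changes were 0.01 (SE 0.48), −0.47 (SE 0.49) and −0.46 (SE 0.40), none of which passed the test. Summed, the 3 immune subunits were at 30.6 ± 9.35 normalized CPM in Control, 24.7 ± 9.96 in DSS and 17.7 ± 1.19 in Indirubin (SD, n = 3), and each of the 3 Indirubin libraries (16.7 to 19) was below each Control library (20.2 to 38.3).

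Markers of immune cells were read beside these levels. The 10 leukocyte markers, none of which was at 0 in all libraries, summed to 24.3, 58.7 and 54.1 normalized CPM in Control, 95.7, 62.9 and 56.3 in DSS and 83.9, 116 and 80.1 in Indirubin, where every library was above every Control library. The 10 lymphocyte markers summed to 7.31 to 12.2, 16.4 to 29 and 6.23 to 17.4, and the 10 macrophage markers to 113 to 188, 149 to 173 and 172 to 272. Of the lymphocyte sum of 29 in DSS-1, the B-lineage genes Ighm, Igkc and Cd79a gave 14, 5.93 and 5.57. The T and NK cell markers Trac, Nkg7 and Cd3d had 4, 2 and 20 counts over all libraries, so the sum does not stand for lymphocytes in general. In Indirubin against Control the 10 hepatocyte markers had a median log2 fold change of −0.55, from −1.57 to 2.48. The part of these cells in the levels of the immune subunits was not tested.

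The subunits that are replaced showed another picture. Psmb5 (ENSMUSG00000022193, chromosome 14, 54851576 to 54855479) was at 4.86, 12.5 and 6.82 normalized CPM in Control, 11.6, 5.32 and 21.3 in DSS and 9.55, 14.2 and 8.21 in Indirubin, and all groups overlapped. Psmb6 (ENSMUSG00000018286, chromosome 11, 70416193 to 70418684) was at 13.6, 16.2 and 18.0 in Control, 23.0, 18.6 and 29.9 in DSS and 15.8, 22.7 and 9.85 in Indirubin. For Psmb6 each DSS library was above each Control library, at a log2 fold change of 0.61 (SE 0.34) and an adjusted p of 0.792 from edgeR's quasi-likelihood F test, Benjamini-Hochberg adjusted. Psmb7 (ENSMUSG00000026750, chromosome 2, 38478048 to 38534099) was at 3.35 to 8.56 in Control, 4.78 to 12.8 in DSS and 3.97 to 6.79 in Indirubin. In DSS-3 all 3 constitutive subunits had their highest value of the 9 libraries, and in DSS-2 all 3 had the lowest of their group.

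**Figure D3:**
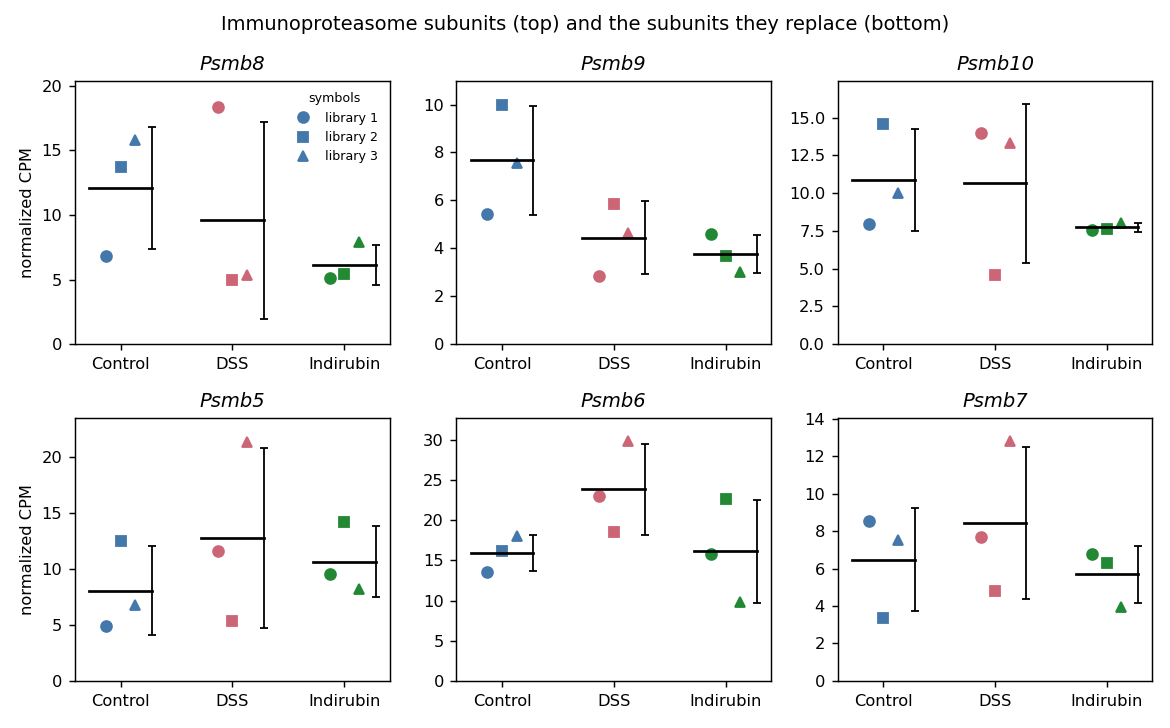
Normalized CPM (vertical axes, each from 0) of the immune catalytic subunits (top row) and of the subunits they replace (bottom row) in the 9 libraries; bars are the mean and whiskers the SD (n = 3). Psmb9 is at 3.02 to 4.59 in Indirubin and 5.45 to 10 in Control, and Psmb6 at 18.6 to 29.9 in DSS and 13.6 to 18.0 in Control.

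The ratio of each immune subunit to the subunit it replaces, taken within a library, does not depend on the scaling of library totals. It was computed as the log2 of the counts after adding 0.5 to each. For Psmb8 over Psmb5 it was 0.48, 0.13 and 1.20 in Control, 0.66, −0.10 and −1.97 in DSS and −0.88, −1.38 and −0.05 in Indirubin. All 3 Control libraries thus had more counts of Psmb8 than of Psmb5 and all 3 Indirubin libraries fewer, while the DSS libraries spread over both. The means were 0.60 ± 0.54, −0.47 ± 1.35 and −0.77 ± 0.68 (SD, n = 3).

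For Psmb9 over Psmb6 the log2 ratio was −1.31, −0.69 and −1.24 in Control, −2.99, −1.66 and −2.67 in DSS and −1.76, −2.61 and −1.69 in Indirubin. Every Control library was above every DSS and every Indirubin library, and the latter groups overlapped. For Psmb10 over Psmb7 it was −0.10, 2.10 and 0.40 in Control, 0.86, −0.05 and 0.06 in DSS and 0.15, 0.27 and 1.01 in Indirubin, and all groups overlapped.

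The differences between groups were tested with an exact two-sided permutation test, in which 3 libraries against 3 cannot go below p = 0.10. The difference of Psmb8 over Psmb5 was −1.37 for Indirubin against Control (exact permutation p = 0.1, Benjamini-Hochberg adjusted over the 9 tests 0.3), −1.07 for DSS against Control (exact p = 0.3, with a difference of −0.32 without DSS-3 and −1.64 without DSS-1) and −0.30 for Indirubin against DSS (exact p = 0.8). The difference of Psmb9 over Psmb6 was −1.36 for DSS against Control and −0.94 for Indirubin against Control (exact permutation p = 0.1 and adjusted 0.3 for both), and 0.42 for Indirubin against DSS (exact p = 0.5). The Control libraries are the same in both of the former. For Psmb10 over Psmb7 the exact p was 0.5 to 0.8. With Indirubin-1 as the only indirubin library, the differences from Control were −1.49 for Psmb8 over Psmb5 and −0.68 for Psmb9 over Psmb6, without a test.

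Taken as a share of all counts on the 6 catalytic genes, the immune subunits made up 42.8%, 54.5% and 50.7% in Control, 45.4%, 34.9% and 26.8% in DSS and 34.9%, 27.9% and 46.3% in Indirubin. The exact Clopper-Pearson 95% intervals, which cover counting error only, ran from 24.0% to 29.7% in DSS-3, the lowest library, and from 49.5% to 59.5% in Control-2, the highest. The group means were 49.3% ± 5.97, 35.7% ± 9.33 and 36.4% ± 9.29 (SD, n = 3). The highest DSS and Indirubin libraries overlapped with Control-1, the lowest of its group. The share is one of reads, and Psmb8 and Psmb9 have long gene models, so it is no share of molecules.

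**Figure D4:**
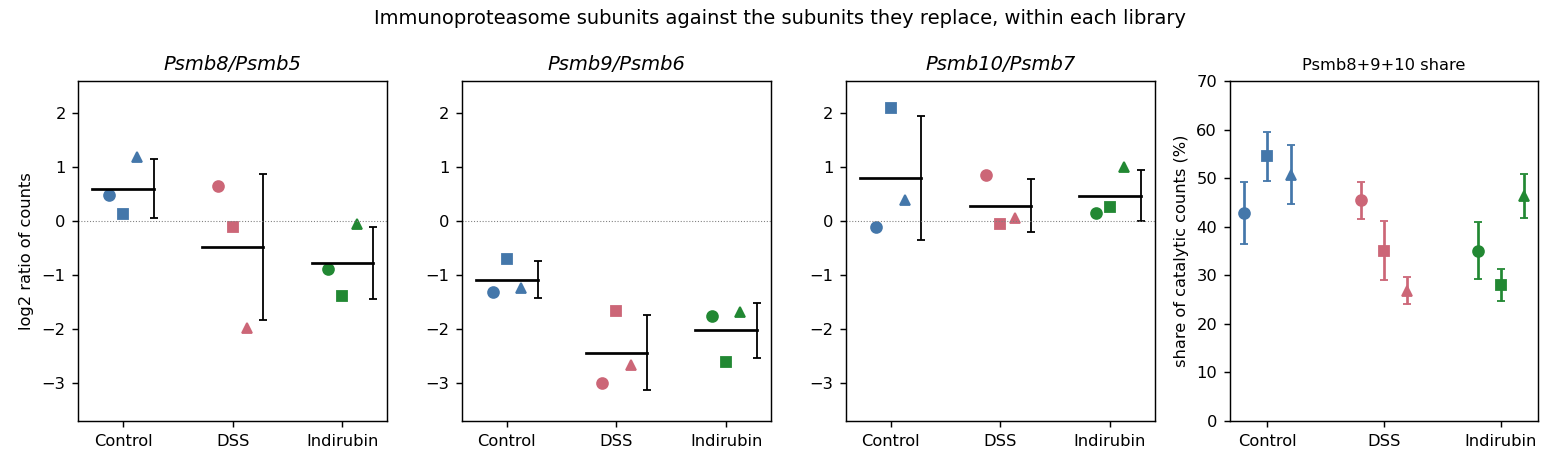
log2 ratio of counts of each immune subunit to the subunit it replaces, and the percentage of catalytic counts on Psmb8, Psmb9 and Psmb10 with exact 95% counting intervals, for each of the 9 libraries; bars are the mean and whiskers the SD (n = 3) in the ratio panels. The Psmb9/Psmb6 ratios are −1.31 to −0.69 in Control and at or below −1.66 in every DSS and Indirubin library.

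The alpha ring, which forms the gate of the core, had 7 tested genes. Of these, 5 stood higher in DSS than in Control (median 0.31), 5 lower in Indirubin than in DSS (median −0.05), and 5 higher in Indirubin than in Control (median 0.04), and none passed the test. Psma3 was at 14.4, 10.4 and 4.63 normalized CPM in Control, 20.6, 9.22 and 18.3 in DSS and 8.26, 9.67 and 11.1 in Indirubin, and all groups overlapped. It had the smallest p of the ring among genes higher in DSS, with a log2 fold change of 0.75 (SE 0.47), and among those lower with indirubin, at −0.73 (SE 0.43). Psma4 and Psma6, at −0.25 and −0.11 in DSS against Control, were the 2 that stood lower there.

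Psma5 was an exception in its spread. It was at 2.53, 0.352 and 2.68 normalized CPM in Control, 5.93, 0.532 and 0.183 in DSS and 5.88, 4.18 and 4.58 in Indirubin. All 3 Indirubin libraries were above all 3 Control libraries, with a log2 fold change of 1.41 (SE 0.77) and an adjusted p of 0.454 from edgeR's quasi-likelihood F test, Benjamini-Hochberg adjusted. Its near-identical pseudogene Psma5-ps had 20 counts in Control-2, 13 in DSS-2 and 16 in DSS-3, the libraries in which Psma5 had 2, 3 and 2 counts. Reads of the gene and its copy may have been divided between them. The sum of both was 2.53, 3.88 and 4.63 normalized CPM in Control, 6.64, 2.84 and 1.65 in DSS and 7.34, 4.34 and 4.75 in Indirubin, and in the sum Control and Indirubin overlapped.

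The 4 structural beta subunits, which have no active site, stood higher in DSS than in Control in 4 of 4 cases (median 0.25). Psmb4, with the smallest p among them, was at 11.9, 11.3 and 9.01 normalized CPM in Control, 18.7, 11.0 and 24.0 in DSS and 14.1, 19.5 and 15.4 in Indirubin. The Indirubin libraries were all above the Control libraries and the DSS libraries were not, through DSS-2. It had a log2 fold change of 0.77 (SE 0.39, adjusted p = 0.721) for DSS and 0.64 (SE 0.36, adjusted p = 0.482) for Indirubin, each against Control, by edgeR's quasi-likelihood F test, Benjamini-Hochberg adjusted.

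Psmb3, another structural beta subunit, was at 13.6, 16.4 and 12.4 normalized CPM in Control, 13.2, 18.4 and 20.3 in DSS and 10.6, 11.9 and 10.8 in Indirubin. Its Indirubin libraries were below all other libraries. Its difference on the log2 scale was −0.64 (SE 0.39, adjusted p = 0.81) against DSS and −0.32 (SE 0.36, adjusted p = 0.777) against Control by edgeR's quasi-likelihood F test, Benjamini-Hochberg adjusted. Psmb1 differed little between groups, with means of 16.4, 16.6 and 17.2.

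The 6 ATPases, which unfold the substrate and thread it into the core, all stood higher in DSS than in Control, at a median log2 fold change of 0.47 and a range from 0.13 to 0.88. They did so with TMM, with DESeq2's size factors and with the library size alone, while 5 of the 6 did without Control-3 (median 0.21) or without DSS-3 (median 0.33). None of the 6 passed the test. Their summed level was 66.3, 72.3 and 53.6 normalized CPM in Control, 80.7, 75.5 and 96.2 in DSS and 62.6, 69.8 and 74.6 in Indirubin. Each DSS library was above each other library in this sum. In Indirubin against DSS 5 of the 6 stood lower (median −0.30), or 3 of the 6 with the library size alone, and in Indirubin against Control 3 of the 6 did (median 0.03).

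Psmc1 (ENSMUSG00000021178, chromosome 12, 100076413 to 100089664), an ATPase that helps to open the gate, was at 10.7, 8.10 and 7.55 normalized CPM in Control, 13.5, 13.6 and 20.5 in DSS and 7.71, 17.4 and 26.3 in Indirubin. All DSS libraries were above all Control libraries, and the Indirubin libraries spread from near the lowest value to the highest. The highest values, in Indirubin-3, DSS-3 and Indirubin-2, were those of the libraries with the lowest mitochondrial share, whose part was not tested. The log2 fold change of DSS against Control was 0.88 (SE 0.39, adjusted p = 0.63), and that of Indirubin against Control was 1.00 (SE 0.47, adjusted p = 0.373), both by edgeR's quasi-likelihood F test, Benjamini-Hochberg adjusted. With Indirubin-1 as the only indirubin library, the value against Control was −0.20.

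Psmc4, another ATPase, was at 10.1, 14.3 and 7.06 normalized CPM in Control, 14.9, 19.3 and 12.1 in DSS and 10.6, 6.23 and 9.76 in Indirubin. All Indirubin libraries were below all DSS libraries, at a log2 fold change of −0.80 (SE 0.42, quasi-likelihood Benjamini-Hochberg adjusted p = 0.742), the smallest p of any proteasome gene in that comparison. Psmc3 was narrower, at 14.4 to 15.5 in Control, 13.5 to 19.9 in DSS and 9.59 to 13.9 in Indirubin, where it stood below Control without overlap.

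The other 11 subunits of the cap, its ubiquitin receptors, deubiquitinase and scaffold, went both ways. In DSS against Control 6 stood higher and 5 lower (median 0.10), in Indirubin against DSS 5 higher and 6 lower (median −0.05), and in Indirubin against Control 8 higher and 3 lower (median 0.22). None passed the test. Their summed level was 98.2, 109 and 105 normalized CPM in Control, 93.8, 84.7 and 123 in DSS and 111, 112 and 110 in Indirubin. Every Indirubin library was above every Control library, but narrowly, at 110 against 109. In Indirubin-1, Psmd11 gave 21.1 of the 111, while it was at 2.92 to 10.2 in the other libraries. The place of Indirubin-1 above Control rests on that gene.

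Psmd4 (ENSMUSG00000005625, chromosome 3, 94940005 to 94949925), a ubiquitin receptor of the cap, was at 18.5, 21.3 and 22.4 normalized CPM in Control, 6.40, 9.75 and 16.7 in DSS and 14.7, 18.8 and 18.7 in Indirubin. Each DSS library was below each Control library, while Indirubin overlapped with both. The log2 fold change was −0.90 (SE 0.40, adjusted p = 0.632) for DSS against Control and 0.66 (SE 0.44, adjusted p = 0.85) for Indirubin against DSS by edgeR's quasi-likelihood F test, Benjamini-Hochberg adjusted.

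Psmd1 (ENSMUSG00000026229, chromosome 1, 85992109 to 86066873), the scaffold on which receptors dock, was at 13.2, 13.9 and 11.7 normalized CPM in Control, 16.7, 6.20 and 12.7 in DSS and 6.79, 7.46 and 5.70 in Indirubin. The 3 Indirubin libraries were below the 3 Control libraries, and overlapped with DSS-2. Its log2 fold change was −0.93 (SE 0.38, adjusted p = 0.299) against Control and −0.84 (SE 0.48, adjusted p = 0.77) against DSS by edgeR's quasi-likelihood F test, Benjamini-Hochberg adjusted. With Indirubin-1 as the only indirubin library the former was −0.94.

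Psmd7, which pairs with the deubiquitinase of the cap, was at 8.76, 7.40 and 3.65 normalized CPM in Control, 6.52, 4.43 and 12.7 in DSS and 12.7, 12.4 and 12.2 in Indirubin. It was higher in every Indirubin library than in every Control library, at a log2 fold change of 0.93 (SE 0.43, quasi-likelihood Benjamini-Hochberg adjusted p = 0.363). Psmd13, a structural subunit, was at 10.3, 7.22 and 5.11 in Control and 9.84, 10.1 and 13 in DSS. On this scale the groups overlapped, through Control-1. As scaled for the 6 libraries of DSS against Control, DSS was higher without overlap (log2 fold change 0.57, SE 0.44). Psmd11, whose level in Indirubin-1 was 21.1 while the other 8 libraries were at 2.92 to 10.2, had a log2 fold change of 0.86 (SE 0.51) in Indirubin against DSS, which was 0.17 without Indirubin-1.

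The activators open the core without ubiquitin. Psme1 and Psme2 form the ring induced by interferon that works with the immunoproteasome, and their genes lie 5912 bases apart on chromosome 14 (55815580 to 55818986 and 55824898 to 55828570). Psme1 was at 14.6, 19.7 and 26.3 normalized CPM in Control, 23.7, 19.7 and 21.7 in DSS and 14.5, 20.2 and 18.9 in Indirubin, with log2 fold changes of 0.14 (SE 0.35), −0.28 (SE 0.37) and −0.15 (SE 0.37). Its groups overlapped throughout.

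Psme2 was at 6.23, 11.5 and 8.28 normalized CPM in Control, 4.15, 6.20 and 12.6 in DSS and 6.79, 1.07 and 3.54 in Indirubin. The 2 lowest of the 9 values were those of Indirubin-2 and Indirubin-3, and Indirubin-1 lay within the range of both other groups. The log2 fold change was −1.04 (SE 0.70, adjusted p = 0.853) against DSS and −1.20 (SE 0.63, adjusted p = 0.432) against Control by edgeR's quasi-likelihood F test, Benjamini-Hochberg adjusted, and −0.18 and −0.36 with Indirubin-1 as the only indirubin library. Leaving out 1 library gave −1.84 to −0.47 against DSS and −2.02 to −0.75 against Control. Psme2b, an intronless copy on chromosome 11 whose reads can be confused with those of Psme2, was at 4.26 to 11.9 over the 9 libraries. The sum of both genes was 14.2, 22.4 and 14.9 in Control, 16.0, 13.5 and 19.6 in DSS and 15.1, 5.33 and 13.3 in Indirubin.

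Of the other regulators, the nuclear activator Psme3 was at 7.78 to 11.8 normalized CPM in Control, 5.14 to 11.0 in DSS and 3.49 to 9.92 in Indirubin. Psme4, an activator that degrades histones, was at 7.78, 7.75 and 13.2 in Control and 5.32, 7.05 and 4.49 in Indirubin, lower without overlap (log2 fold change −0.73, SE 0.45, quasi-likelihood Benjamini-Hochberg adjusted p = 0.519). The inhibitor Psmf1 was at 2.92, 1.23 and 0.731 in Control, 3.20, 8.33 and 0.548 in DSS and 4.04, 5.90 and 2.76 in Indirubin, and its DSS libraries ran from the lowest to the highest value of the 9. Its log2 fold change was 1.35 (SE 1.04) in DSS and 1.39 (SE 0.77) in Indirubin, each against Control, from as few as 3 counts in a library. The value for DSS was 0.19 without DSS-2 and 2.00 without Control-1, and that for Indirubin was 1.03 to 2.07 with 1 library left out.

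The assembly chaperones, which build the core and the cap and then leave, had few counts and wide errors. Their median SE of a log2 fold change was 1.28, 1.32 and 0.96 in the 3 comparisons, beside 0.48, 0.49 and 0.45 over all proteasome genes. Psmd10 (gankyrin), which escorts an ATPase, had 35, 16 and 8 counts in Control, 0, 1 and 18 in DSS and 2, 20 and 33 in Indirubin. Its level was lower in each DSS library than in each Control library, at a log2 fold change of −2.58 (SE 1.35, quasi-likelihood Benjamini-Hochberg adjusted p = 0.732). Leaving out 1 library moved that value between −1.90, without Control-1, and −5.23, without DSS-3. Psmd9, a further ATPase escort, was at 5.21 to 7.62 normalized CPM in DSS and 0.367, 3.69 and 4.92 in Indirubin, below DSS without overlap, where Indirubin-1 had 2 counts. Psmg4 had 17 counts in DSS-3 and 0 in the other DSS libraries, 6 to 45 in Indirubin and 0 to 28 in Control, so no direction could be read. Psme3ip1, a binding partner of Psme3 that the name rule also caught, was at 1.88 to 7.79 normalized CPM over the 9 libraries.

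How far replicates spread beyond counting error was measured as the ratio of the variance of the counts to that of Poisson sampling, for genes with at least 30 counts in a group. Its median was 5.02 over 44 genes in Control, 10.6 over 45 in DSS and 5.44 over 48 in Indirubin. The ratio was above 3 for 28, 38 and 33 genes. The largest were those of Psmb8, Psma5 and Psmb5 in DSS, at 49.8, 40.3 and 36.4.

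A list of 27 partners of the proteasome (ubiquitin genes, shuttle factors, deubiquitinases and transcription factors of its subunits) was set beside it. The table held 26 of them, and Paaf1 was not analysed here. In DSS against Control 11 of 24 tested (45.8%, beside 50.6% of all genes) stood higher and 13 lower (median −0.01). In Indirubin against DSS 14 of 26 (53.8% beside 56.8%) stood higher (median 0.05). In Indirubin against Control 18 of 26 (69.2% beside 55.5%) did (median 0.12). At an adjusted p under 0.05 the quasi-likelihood test called 0 in each, where it called 0.708%, 0% and 0.236% of all genes. Nfe2l1, the factor that drives subunit genes when proteasome activity is short, was at means of 13.2, 14.8 and 13.0 normalized CPM in Control, DSS and Indirubin.

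Rps27a, a ubiquitin fusion gene, was at 23.7, 20.1 and 12.7 normalized CPM in Control and 45.0, 29.2 and 32.5 in DSS, without overlap. Its log2 fold change was 0.96 (SE 0.35, adjusted p = 0.436). Vcp, the segregase that delivers substrates, was at 18.7 to 20.2 in Control, 17.9 to 23.6 in DSS and 11.1 to 13.3 in Indirubin. It was lower in Indirubin than in both other groups without overlap, at −0.71 (SE 0.38, adjusted p = 0.742) against DSS and −0.62 (SE 0.34, adjusted p = 0.462) against Control. These p-values are from edgeR's quasi-likelihood F test, Benjamini-Hochberg adjusted.

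A second list held 13 genes of MHC class I antigen processing, the pathway that the immunoproteasome feeds. In DSS against Control 6 of 12 tested stood higher and 6 lower (median 0.07), while 10 of 13 stood lower in Indirubin than in DSS (median −0.50) and 10 of 13 lower in Indirubin than in Control (median −0.55). The groups of the last comparison did not overlap for 4 of the 13 (30.8%, beside 9.07% of all genes lower), B2m, Canx and Erap1 among them. Canx and Erap1 were named there after their values were seen. The 10 hepatocyte markers had the same median in that comparison, −0.55, with 6 lower and 4 higher. At an unadjusted p under 0.05, 4 of them were lower and 1 higher. Lower without overlap were 3, Ttr at −1.57 (SE 0.49), Serpina1c at −1.36 (SE 0.42) and Apoa1 at −1.26 (SE 0.41). These were named after their values were seen. The 4 higher markers stood at 0.26 to 2.48, and each overlapped with Control, so the list had no common direction. None of the 10 passed the adjusted threshold. Their part in the values of this list was not tested. At a Benjamini-Hochberg adjusted p under 0.05 the quasi-likelihood test called 0 of the list in each comparison, beside 0.708%, 0% and 0.236% of all genes. At an unadjusted p under 0.05 it gave 1 of 12, 1 of 13 and 4 of 13, all lower. Beside these, 4.05%, 3.22% and 6.38% of all genes tested were lower at that level. The DESeq2 Wald test called 1 of the 13, lower, in Indirubin against Control, where it called 2.11% of all genes with an adjusted p lower, and 0 of the list in the other comparisons.

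B2m, the light chain of class I molecules, was at 283, 352 and 222 normalized CPM in Control, 151, 272 and 314 in DSS and 183, 134 and 140 in Indirubin. Each Indirubin library was below each Control library, at −0.88 (SE 0.37, quasi-likelihood Benjamini-Hochberg adjusted p = 0.314). Irf1, a transcription factor of the interferon response, was at 2.53, 3.52 and 2.44 in Control, 7.82, 4.78 and 4.75 in DSS and 3.86, 2.13 and 1.04 in Indirubin. It stood highest in DSS, with no overlap with either other group, at log2 fold changes of 1.08 (SE 0.63) for DSS against Control and −1.33 (SE 0.70) for Indirubin against DSS. Tap1 had 0 to 34 counts and Tap2 0 to 51, and their groups overlapped. The heavy chain H2-D1 was at means of 111, 136 and 124.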

How the data were processed

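RNA of 9 mouse liver samples was sequenced on the DNBSEQ platform from 400 ng of RNA. The authors deposited raw counts per gene, with the gene length, in 1 table of all 9 libraries. Per the submitters' processing notes the build was GRCm39. The aligner, the counter and the annotation are not given in the sources used here. The deposited FPKM values, the authors' fold changes and p-values, and 3 gene lists without measurements were not used.

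Counts were tested with edgeR 4.0.16 (R 4.3.3), by TMM scaling, edgeR's default filter (minimum count 10, minimum total 15), and the quasi-likelihood F test on the 6 libraries of each comparison. Benjamini-Hochberg adjustment ran over all genes tested, with a threshold of 0.05. The SE is the log2 fold change divided by the square root of F. DESeq2 1.42.0 was an alternative, and the code was tested on simulated data. Ratios and shares were computed in Python 3.11.15 with scipy 1.17.1. Depth was 6514863 to 7944684 counts per library, mostly mitochondrial, and intervals cover counting error only. Promoters are from RefSeq on GRCm38.p6.

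Genes named in every comparison were the catalytic subunits, Psme1 and Psme2, any called gene, the tested gene of each class with the smallest p in each direction, and the 2 such genes in each direction of both other lists. The genes and lists were chosen with earlier results of these data known. Results of some genes of these lists are not reported here.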

Additional observations from a re-analysis of the deposited data

How the results depend on the processing

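The alternative runs were DESeq2 size factors, library size alone, no filter and a stricter filter of 10 counts in each library. Others were all 9 libraries in 1 fit, a replicate block, the DESeq2 Wald test, no mitochondrial genes and each library left out. In all of these, 0 proteasome genes were called at an adjusted p under 0.05. With the library size alone the median log2 fold change of the proteasome genes was 0.86 for DSS against Control, 0.07 for Indirubin against DSS and 0.99 for Indirubin against Control. With Indirubin-1 as the only indirubin library, a setting chosen after seeing the data, that median was −0.20 for Indirubin against Control. Depth limits the assembly chaperones most.

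Signs of single genes that turned are given by setting, and the cause was not tested beyond the shift of all genes given above. With the library size alone, DSS against Control gave 0.38 for Psmb8, 0.63 for Psme2, 0.40 for Psma4, 0.27 for Psme3 and 0.42 for Tapbp. Indirubin against DSS gave 0.03 for Psmb9 and 0.07 for Psme1. Indirubin against Control gave 0.08 for Psmb8, 0.52 for Psmb10, 0.80 for Psmb7, 0.91 for Psme1, 0.95 for Psma6, 0.67 for Psmb3, 0.68 for Psmc3, 0.05 for Psmd1, 0.36 for Vcp and 0.03 for B2m. Psmb10 in DSS against Control was 0.00 with DESeq2 size factors and the Wald test and −0.02 with all 9 libraries. Without a filter, Indirubin against DSS gave −0.06 for Psmb1, −0.01 for Psmc1 and −0.01 for Psme3. With Indirubin-1 alone, Indirubin against DSS gave 0.05 for Psmb9, −0.23 for Psmb1, −1.04 for Psmc1, −1.02 for Psme3 and −0.14 for the Psmb10 to Psmb7 ratio. Indirubin against Control gave −0.03 for Psmb6, 0.05 for Psmb7, −0.20 for Psmc1, −0.18 for Ubb and −0.21 for H2-D1.

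Leaving out each library in turn gave a median over the proteasome genes of 0.05 to 0.28 for DSS against Control, −0.42 to −0.11 for Indirubin against DSS and −0.15 to 0.02 for Indirubin against Control. The ranges of other results that cross 0 follow. The log2 ratio of Psmb8 to Psmb5 ran from −1.05 to 0.26 for Indirubin against DSS, and that of Psmb10 to Psmb7 from −0.96 to 0.14 for DSS against Control, −0.08 to 0.47 for Indirubin against DSS and −0.77 to 0.33 for Indirubin against Control. For DSS against Control the range was −0.26 to 0.33 for Psmb10, −0.08 to 0.34 for Psme1, −0.67 to 0.14 for Psme2, −1.21 to 0.02 for Psmb8 and −0.69 to 0.12 for Tapbp. For Indirubin against DSS it was −1.01 to 0.14 for Psmb8, −0.34 to 0.43 for Psmb1, −0.33 to 0.35 for Psmc1, −0.17 to 0.44 for Psme3, −0.71 to 0.32 for Psmb5 and −0.08 to 1.45 for Tap2. For Indirubin against Control it was −0.31 to 0.30 for Psmb6, −0.51 to 0.06 for Psmb7, −0.37 to 0.06 for Psme1, −0.44 to 0.06 for Psma6, −0.18 to 0.38 for Psmd5 and −0.13 to 0.35 for H2-D1. Without Indirubin-1, Indirubin against Control passed the threshold for B2m (−1.17, quasi-likelihood adjusted p = 0.0473).

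The groups share replicate numbers, but same-numbered libraries did not deviate together, with correlations of −0.02 to 0.03. A replicate block gave medians of 0.21, −0.18 and −0.02 in the 3 comparisons and called 0 proteasome genes. It gave −0.07 for Psmb10 in DSS against Control, −0.02 for Psmc1 in Indirubin against DSS and −0.02 for Psmb6 in Indirubin against Control.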
